A study of Canis lupus familiaris with 2 samples.

Results

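miR-22 and miR-378 are microRNAs (miRNAs) that skeletal and heart muscle express together with many other tissues. They were the subject here among the dog miRNAs measured in serum of normal and dystrophic dogs. The 2 miRNAs, cfa-miR-22 and cfa-miR-378 (cfa denotes the dog, Canis lupus familiaris), were selected by name from the 291 dog miRNAs on the chip. They were chosen on the measured values themselves, as the pair outside the muscle-specific miRNAs with a much higher signal in dystrophic serum. The height of their ratios is therefore a description and not the outcome of a test. Each pool mixed serum of 3 male dogs at 2 months of age, from normal dogs or from dystrophic dogs of the CXMD_J colony, an X-linked canine model of Duchenne muscular dystrophy (DMD). RNA of each pool was labeled with Cy5 and hybridized to 1 one-color 3D-Gene array, so each condition had 1 array and the differences between dogs could not be measured. In pooled serum, release from more cells and release of more miRNA per cell cannot be told apart.

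A miRNA lowers the translation or stability of mRNAs that pair with it, mostly through the bases near its 5′ end known as the seed. miR-22 is produced from a noncoding host transcript and is abundant in striated muscle, where it is known to act on growth and metabolism of the heart and to target histone deacetylase 4 and sirtuin 1. miR-378 lies within PPARGC1B, the gene of the transcriptional coactivator PGC-1β, and is known as a regulator of mitochondrial and lipid metabolism and as a miRNA that rises when myoblasts differentiate. Unlike miR-1, miR-133 and miR-206, neither is restricted to muscle. The sequence of the probes and of the mature miRNAs was not used here.

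In the spots as scanned, before any processing, miR-22 read 154 in normal and 322 in dystrophic serum. The spot of miR-378 read 173 in normal and 376 in dystrophic serum. Both spots were therefore brighter on the dystrophic array, by a factor of 2.09 for miR-22 and 2.17 for miR-378 with the background still included. Spots without a probe sequence, called blank spots, gave that background. After 5% of these spots had been trimmed at each end, their mean was 118 for normal and 116 for dystrophic serum. A miRNA counted as detected when its spot was above this mean plus 2 SD, a limit of 126 and 124, and was not marked as unusable by the scanner software at all 3 gains. The mark removed 1 dog miRNA above the limit, miR-34a in dystrophic serum.

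The spots of both miRNAs were above the limit on both arrays, and the scanner software marked neither as unusable at any of 3 gains. On the normal array miR-22 lay 35.9 units above the blank mean, 9.12 times the SD of the trimmed blank spots, and 10 of 1408 blank spots reached its brightness. miR-378 lay 55.1 units above it, 14.0 times that SD, and 3 blank spots reached its brightness. In normal serum the miR-22 spot was thus within reach of the brightest spots that capture nothing, among them 2 of 32 negative-control spots and 4 of 181 positions named as having no probe. The brightness of miR-378 there was reached by 2 of the 181 no-probe positions and by no negative-control spot. On the dystrophic array the distances were 206 units for miR-22 and 260 units for miR-378, and no blank, negative-control or no-probe spot reached either.

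After subtraction of the blank mean, each array was scaled to a median signal of 25 over its detected dog miRNAs. The normalized signal of miR-22 was 37.4 ± 7.36 in normal and 171 ± 12.6 in dystrophic serum. That of miR-378 was 57.3 ± 7.91 in normal and 215 ± 15.3 in dystrophic serum. The error is the SD of spot noise, calculated from the spread of all blank spots and from a coefficient of variation of 6.67% between replicate spots of 10 bright control probes. How dogs, extractions or arrays differ is not part of it. On this scale dystrophic serum exceeded normal serum by 133 units for miR-22 and by 158 units for miR-378.

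**Figure D1:**
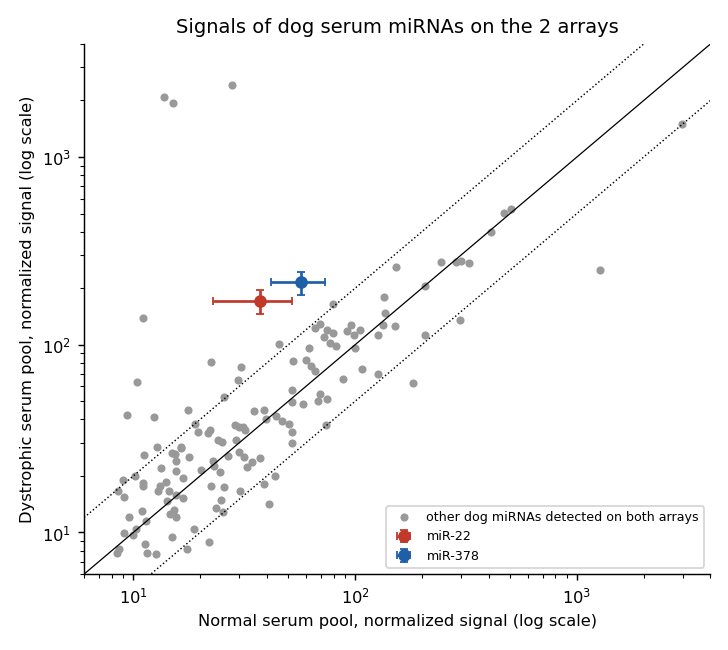
Normalized signal of each dog miRNA detected on both arrays, in normal serum (x axis, log scale) against dystrophic serum (y axis, log scale). Gray points are single miRNAs, bars are 95% spot-noise intervals of the 2 colored miRNAs, and lines mark ratios of 1 (solid) and of 2 and 0.5 (dotted); miR-22 (37.4 and 171) and miR-378 (57.3 and 215) lie above the upper dotted line.

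The dystrophic over normal ratio was 4.57 for miR-22, with a 95% spot-noise interval from 3.02 to 6.90. For miR-378 it was 3.75, with an interval from 2.77 to 5.09. On the log2 scale these ratios were 2.19 (standard error 0.30) and 1.91 (standard error 0.22). Both intervals lay above 2, which describes values the pair was chosen on, and the spread between dogs was not measured. No test between the conditions was made, as 1 array per condition allows none.

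Of the 142 miRNAs detected on both arrays, 19 (13.4%) had a ratio above 2, miR-22 and miR-378 among them, and 8 (5.63%) had a ratio of 0.5 or less. Since the pair was chosen for this difference, nothing is read from their place among the 19. The split between higher and lower miRNAs depended on the scaling. It was 34 and 3 without scaling and 31 and 4 with scaling to the control probes. It was 12 and 19 when the arrays were scaled on the miRNAs detected on both, and 10 and 22 with quantile normalization. The median ratio of the 142 miRNAs was 1.09. Relative to that median miR-22 was 4.18-fold and miR-378 3.44-fold higher in dystrophic serum, values that scaling by a factor per array leaves as they are.

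Whether the ratios of the 2 miRNAs differed from each other was examined next. The ratio of miR-22 was 1.22 times that of miR-378, with an interval from 0.728 to 2.03. The interval includes 1, and it describes values on which the pair was chosen. Their order turned when the background was left in the signals, where the quotient was 0.963, and with normexp on the spot signal alone, where it was 0.997.

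In the order of the ratios miR-22 was the 6th and miR-378 the 8th of 142. Next above miR-22 stood miR-206, a muscle-specific miRNA of regenerating fibers, at 12.6, and miR-128 at 6.09. Between miR-22 and miR-378 stood miR-105a at 4.52, and next below miR-378 were miR-127 at 3.62 and miR-103 at 3.33. These neighbors had wide intervals, from 3.63 to 43.8 for miR-206, from 1.62 to 23.0 for miR-128 and from 1.03 to 19.9 for miR-105a, and all of these intervals overlapped those of miR-22 and miR-378. The normalized signal of miR-128 in normal serum was 10.4 and that of miR-105a 9.37, close to the blank spots. The normal signals of miR-22 and miR-378 were farther from the background, and their intervals were narrower. Of the 19 miRNAs, 8 had a normal signal of at least 25, and 6 had an interval wholly above 2. These 6 were miR-133a, miR-133b, miR-133c, miR-206, miR-22 and miR-378. At the limit of 2, the last miRNAs inside were miR-30d at 2.07 and miR-10b at 2.06, and the first outside were miR-299 at 1.99 and miR-362 at 1.97.

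**Figure D2:**
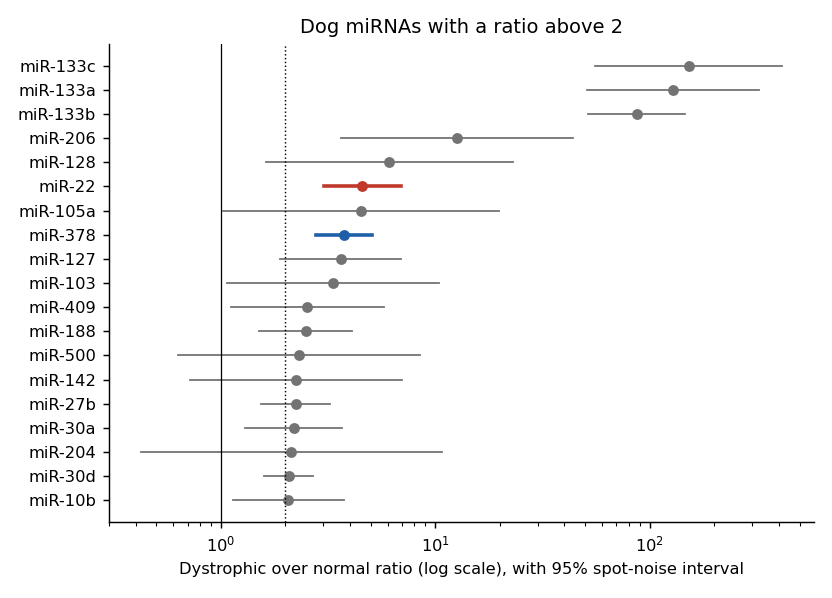
Dystrophic over normal ratio (x axis, log scale) of the 19 miRNAs above 2, in order of the ratio, with miR-22 in red and miR-378 in blue. Points are ratios, bars are 95% spot-noise intervals, and lines mark 1 (solid) and 2 (dotted); the bars of miR-22 (3.02 to 6.90) and miR-378 (2.77 to 5.09) are short compared with that of miR-105a (1.03 to 19.9).

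miRNAs of similar brightness in normal serum were compared next. Within 1.5-fold of the normal signal of miR-22 there were 35 other miRNAs detected on both arrays, with a median ratio of 0.95, 5 of them above 2 and 3 at 0.5 or less. Within 1.5-fold of the normal signal of miR-378 there were 31, with a median ratio of 1.10, 2 of them above 2 and 3 at 0.5 or less. Over all 142 these shares were 13.4% and 5.63%. The highest ratio in the window of miR-22 was 87.1, that of muscle-specific miR-133b, and the highest in the window of miR-378 was 2.23, that of miR-27b. Each of these miRNAs was measured with 1 spot, and all share the same 2 arrays.

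The miRNAs closest to miR-22 and miR-378 in signal on both arrays were found by distance on the log2 scale over the 2 arrays. The nearest to miR-22 was miR-378. After it came miR-27b, with normalized signals of 45.2 in normal and 101 in dystrophic serum, then miR-503, miR-139 and miR-30d. The nearest to miR-378 was miR-30d, with 79.5 in normal and 165 in dystrophic serum, before miR-22, miR-139, miR-503 and miR-365. The ratios of miR-503 and miR-139 were both 1.87, that of miR-30d was 2.07 and that of miR-365 was 1.61. Likeness was computed from 2 arrays alone, and it is given as a description.

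The position on the chip was examined because a bright spot can add light to those beside it. The miR-22 spot touches 8 others, of which the brightest, at a corner, is a spot named QC-Probe that read 1550 in normal and 3521 in dystrophic serum. The other 7 read from 109 to 148 in normal and from 110 to 146 in dystrophic serum, and none was brighter in dystrophic serum by more than 7.85 units. The miR-22 spot was brighter there by 168 units. One of them, miR-19b, touches the same bright spot along a side and read 148 in normal and 146 in dystrophic serum. The miR-378 spot likewise has a QC-Probe spot at a corner that read 5660 in normal and 8561 in dystrophic serum. Of the QC-Probe spots that lie along a side of both this spot and miR-378, one read 165 in normal and 166 in dystrophic serum, and the other read 114 in both. The miR-378 spot was brighter there by 203 units. The part of light from the QC-Probe spots in the signals of miR-22 and miR-378 was not tested. Of the other 7 spots around miR-378, the largest change was 74.2 units, that of miR-127, at another corner, which was itself among the 19 miRNAs above 2. The files do not say what a QC-Probe spot captures.

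**Figure D3:**
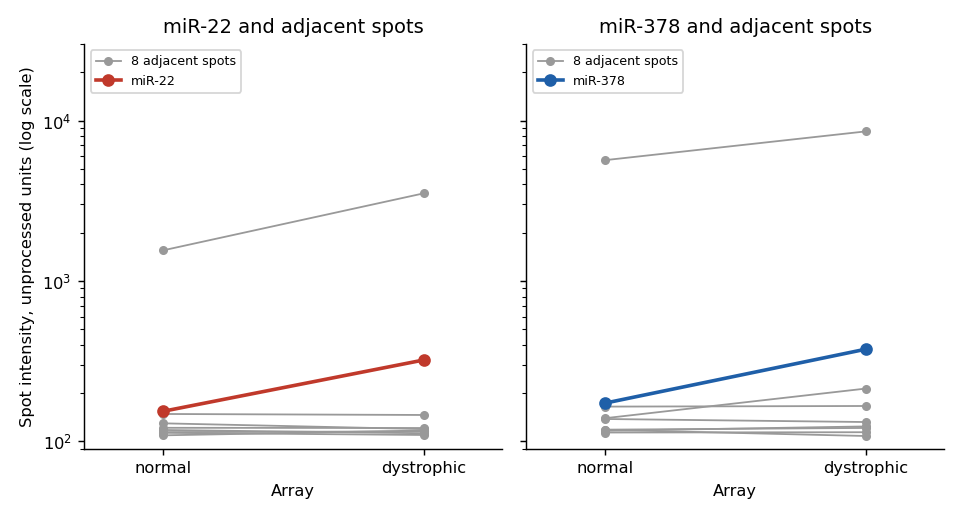
Unprocessed intensity (y axis, log scale) on the normal and the dystrophic array of miR-22 (left panel, red) and miR-378 (right panel, blue) and of the 8 spots that touch each of them (gray), with lines joining the readings of a spot. miR-22 went from 154 to 322 and miR-378 from 173 to 376, while 7 of the 8 spots around miR-22 changed by no more than 10.3 units.

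The local background, which the scanner software reads around each spot, was also higher around both in dystrophic serum. Around miR-22 it was 121 in normal and 210 in dystrophic serum. Around miR-378 it was 168 in normal and 330 in dystrophic serum, equal to 96.9% and 87.7% of the spot itself. Over the dog miRNA spots at least 25 units above the blank mean, the local background had a median share of 72.6% of the spot in normal and 73.6% in dystrophic serum, and the shares at miR-378 were above both. At miR-22 the share was 78.4% in normal serum, above the median, and 65.2% in dystrophic serum, below it. The part of the local background in the ratios of miR-22 and miR-378 was not tested. Around blank spots the median local background was 77.4 in normal and 80.8 in dystrophic serum. In another setting, the local background of each spot was subtracted from that spot in place of the blank mean. Before scaling, this left 33.3 units in normal and 112 units in dystrophic serum for miR-22. For miR-378 it left 5.41 units in normal and 46.3 units in dystrophic serum. With this setting neither miR-22 nor miR-378 was counted as detected in both sera, and no ratio was obtained.

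Genes near the 2 miRNAs were looked up by name in the genes that RefSeq places on the UU_Cfam_GSD_1.0 assembly, which hold 290 of the 291 miRNAs. The gene of miR-22 lies between the protein-coding genes TLCD2 and WDR81 and inside neither. The miR-378 gene lies within PPARGC1B. Of the miRNAs detected on both arrays, 66 have a gene within a protein-coding gene, 10 of them with a ratio above 2, and the remaining 76 include 9 above 2. The next chip miRNAs along the chromosome after miR-378 are miR-145 and miR-143, a pair of smooth-muscle miRNAs. miR-145 had a ratio of 0.506, from normalized signals of 73.6 in normal and 37.2 in dystrophic serum, and miR-143 was detected in neither serum. On the other side the nearest is miR-146a, detected in neither serum, and beyond it lies a gene of miR-103, within a pantothenate kinase gene. Next to miR-22 are miR-132 and miR-212 on one side, with signals of 8.37 and 14.0 detected in dystrophic serum alone, and miR-423a on the other, whose ratio was 1.08. miR-144, beyond miR-423a, was detected in neither serum. A ratio was thus obtained for 3 of these 8 neighbors, miR-145, miR-103 and miR-423a, and miR-103 also has a gene elsewhere.

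Other miRNAs known to act in lipid, glucose or mitochondrial metabolism were compared with the pair. Of 21 such miRNAs, 15 were detected on both arrays, with a median ratio of 0.968 compared with 1.09 for all 142. miR-103 and miR-27b were above 2 and none of the 15 was at 0.5 or less, beside 13.4% and 5.63% of all 142. miR-34a, a miRNA of the p53 pathway, is in the list but outside the 15. It read 11.2 in normal serum, and its unusable spot in dystrophic serum would give 72.5. miR-103, which acts on insulin sensitivity, had a ratio of 3.33, from signals of 12.4 (normal) and 41.4 (dystrophic), and its interval ran from 1.07 to 10.4. Its close relative miR-107, similar enough in sequence that their spots could share labeled RNA, was detected in normal serum alone at 14.8. miR-27b, a regulator of lipid genes and of the muscle factor Pax3, had a ratio of 2.23 with an interval from 1.55 to 3.22. The brightest of the list, miR-23a, read 284 in normal and 275 in dystrophic serum, and its ratio was 0.968. miR-33a and miR-33b, encoded within the sterol-regulating SREBF genes, were detected in neither serum. miR-122, the liver miRNA of cholesterol metabolism, had signals of 8.63 and 8.14.

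Among 7 miRNAs encoded within myosin heavy chain, SREBF or pantothenate kinase genes, a list made to set beside miR-378 in PPARGC1B, only miR-103 was detected on both arrays. miR-208a and miR-208b, which lie in cardiac myosin genes, were detected in neither serum, and miR-499, which lies in MYH7B, was detected in normal serum alone at 12.3.

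Of 26 widely expressed miRNAs with a known role in myogenesis or muscle mass, 21 were detected on both arrays. Their median ratio was 1.11, with 5 above 2 and none at 0.5 or less, beside 19 (13.4%) and 8 (5.63%) of all 142. The 5 were miR-128, miR-188, miR-27b, miR-30a and miR-30d. The brightest, miR-24, read 469 in normal and 501 in dystrophic serum, and its ratio was 1.07. Under other processing the ratio of miR-24 ran from 0.405 with quantile normalization to 3.43 with the local background subtracted.

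The ratios of the muscle-specific miRNAs were above those of miR-22 and miR-378. Of 8 on the chip, 4 were detected on both arrays, all above 2 (13.4% of all 142). miR-133b had signals of 27.8 in normal and 2426 in dystrophic serum, and the summed signal of the detected members was 80.0 in normal and 6616 in dystrophic serum. The ratio of miR-133b, 87.1, had an interval from 51.7 to 147, which does not overlap those of miR-22 and miR-378. miR-206 had an interval from 3.63 to 43.8, which overlaps both. Outside its interval, the ratio of miR-133b was 20.5 without background subtraction and 31.4 with normexp on the spot signal alone. It was 240 with the median of the adjacent spots as background and 0.850 with normexp on spot and local background. For miR-1 a signal was detected only in dystrophic serum, at 20.6, and for miR-499 only in normal serum, at 12.3, while miR-208a and miR-208b were detected in neither.

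miRNAs of cell types other than muscle were set beside the pair, because blood cells and liver also express miR-22 or miR-378. Of 8 red-cell miRNAs, 5 were detected on both arrays, 3 at 0.5 or less (5.63% of all 142) and none above 2. The summed signal of the detected members was 1907 in normal and 679 in dystrophic serum. miR-451, the brightest in normal serum, read 1276 there and 250 in dystrophic serum, while miR-185 was detected in dystrophic serum alone, at 11.4, and miR-144 and miR-363 in neither serum. Of 7 leukocyte miRNAs, 4 were detected on both arrays with a median ratio of 0.973. The summed signal was 337 in normal and 243 in dystrophic serum, with miR-223 the brightest at 206 and 113, and miR-155, miR-146a and miR-146b in neither. miR-142 was above 2 (13.4% of all 142), at 2.24 with an interval reaching down to 0.719, and none was at 0.5 or less (5.63% of all 142). Of 8 platelet and endothelial miRNAs, 6 were detected on both arrays with a median ratio of 0.656, none above 2 (13.4% of all 142), 1 at 0.5 or less (5.63% of all 142), and sums of 964 and 834. The brightest was miR-24, and the endothelial marker miR-126 was detected in neither serum. Of 4 liver miRNAs, 3 were detected on both arrays with ratios from 0.889 to 1.57. Their summed signal was 91.0 in normal and 117 in dystrophic serum, with miR-885 the brightest and miR-194 in neither. The part of any of these cell types in the signals of miR-22 and miR-378 was not tested.

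**Figure D4:**
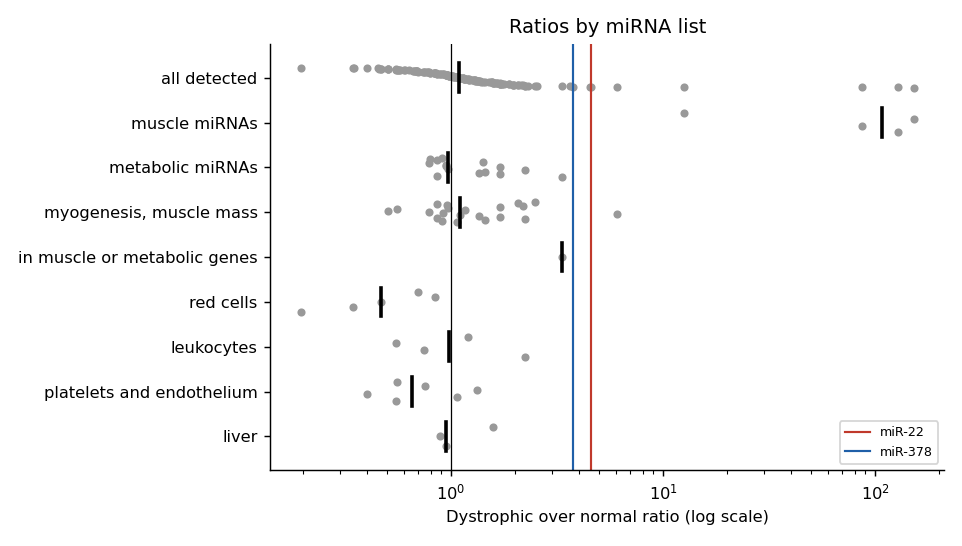
Dystrophic over normal ratio (x axis, log scale) of all 142 miRNAs detected on both arrays and of those in each list, 1 gray point per miRNA, spread vertically for visibility; black bars are medians and colored lines the ratios of miR-22 (4.57, red) and miR-378 (3.75, blue). The medians were 1.09 for all, 0.968 for metabolic miRNAs and 0.466 for red-cell miRNAs, and the 4 muscle miRNAs lie to the right of both lines.

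The sizes of both ratios depended on how the background was treated. Under 14 other ways of processing that gave a ratio, 2 of them chosen after seeing the data, that of miR-22 ran from 1.52 to 5.95 and was above 2 in 13. That of miR-378 ran from 1.31 to 4.96 and was also above 2 in 13. Both ratios were above 1 under all 14. The values under 2 came from normexp, a background correction that here used the local background and added 50 units to every signal. Normexp on the spot signal alone added the same 50 units.

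**Figure D5:**
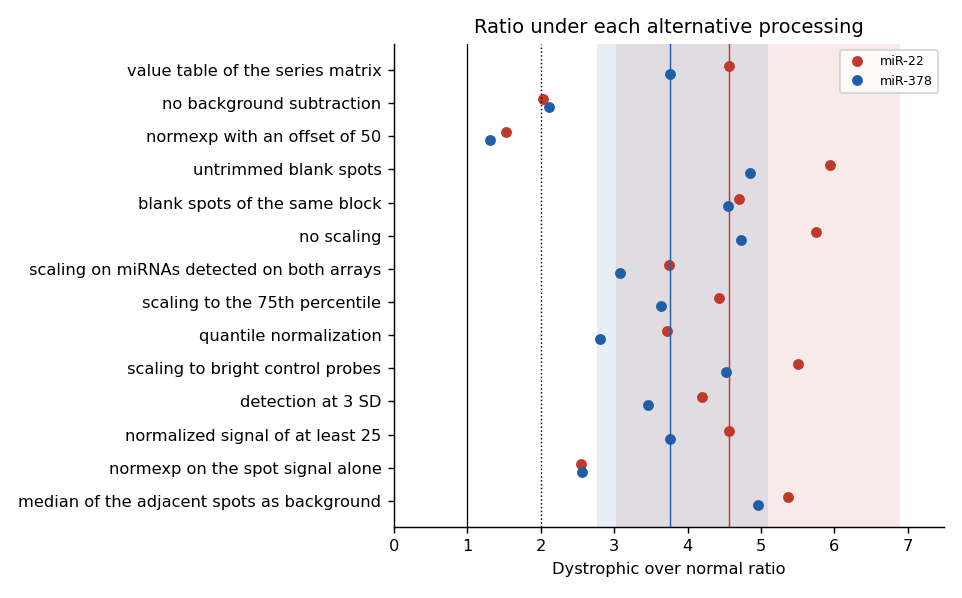
Dystrophic over normal ratio (x axis) of miR-22 (red) and miR-378 (blue) under each alternative way of processing the same 2 arrays, named on the y axis. Colored lines and bands are the reported ratios (4.57 and 3.75) with their 95% spot-noise intervals, and the black lines mark 1 (solid) and 2 (dotted); for each miRNA 3 alternatives lie outside its band, all to the left of it.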

How the data were processed

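Serum RNA of 2 pools was measured on 1 array each. The authors deposited scanner output holding the median intensity of each spot and its local background intensity without normalization, read with the 3D-Gene Extraction software, and a table of globally normalized intensity. From the scanner output, the mean of the blank spots, trimmed by 71 spots at each end, was subtracted. Detected signals were scaled to a median of 25. The results differed from the deposited table by at most 0.0498 units, which is its rounding. The labels gave the condition of each pool.

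The 95% spot-noise interval of a ratio was propagated on the log scale from the central 95% of all blank spots and from the control-probe variation. A control probe was bright when its net signal was at least 5 times 2 SD of the blanks. Among the 10, S-Probe6 had a ratio of 2.22 and the other 9 from 0.854 to 1.06. The steps were tested on simulated data.

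The miRNAs and lists were chosen with earlier results of these data known. The rule for naming allowed, beside the pair, the 5 nearest in signal, the 2 next above and below in ratio, and members of the lists called or with a signal of at least 100; others are named as undetected, brightest or defining members of a list, relatives or neighbors, chosen after their values were seen. The planned naming by shared bases was not run, since sequences were not used here. 13 alternatives were planned and 2 were added after seeing the data. The tools were limma 3.58.1 in R 4.3.3 for normexp, and numpy 2.4.6, pandas 2.3.3 and matplotlib 3.10.9 in Python 3.11.15. RT-qPCR data were not analysed here.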

Additional observations from a re-analysis of the deposited data

How the results depend on the processing

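Outside its spot-noise interval, the ratio of miR-22 was 2.04 without background subtraction, 1.52 with normexp on spot and local background, and 2.55 with normexp on the spot signal alone. The corresponding ratios of miR-378 were 2.11, 1.31 and 2.56. A background left in draws a ratio toward 1 by construction. Normexp changed both the background and, by 50 units, every signal, with the local background as well as on the spot signal alone. The cause of its values was not tested. Normexp on the spot signal alone and the median of the adjacent spots as background were chosen after seeing the data. The other 11 ratios of each miRNA lay inside the interval, and none of the 14 was below 1. The quotient of the 2 ratios stayed inside its own interval in all that gave one.

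The numbers of miRNAs above 2 and at 0.5 or less, 19 and 8, were 6 and 1 without background subtraction, 4 and 2 with normexp and local background, 6 and 1 with normexp alone and 4 and 1 with the local background subtracted. They were 34 and 3 without scaling, 12 and 19 when only miRNAs detected on both set the scaling, 10 and 22 with quantile normalization, and 31 and 4 with control probes. Untrimmed blank spots gave 3 at 0.5 or less, detection at 3 SD gave 12 above 2, adjacent spots gave 11 above 2, and a signal of at least 25 left 8 and 3. Some of these counts come from fewer than 142 ratios. With the local background subtracted 21 miRNAs had a ratio, with untrimmed blank spots 99 and with detection at 3 SD 118. With adjacent spots 89 had one, and with a signal of at least 25 there were 71. The log2 median of all ratios, 0.13, moved by 0.33 without scaling, by -0.28 with scaling on those detected on both, by -0.39 with quantile normalization and by 0.27 with control probes. Changes of the background moved it too, by 0.32 with untrimmed blank spots and by 0.21 with the local background subtracted.

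Normexp with the local background moved 19 of 38 other named miRNAs across a ratio of 1. Of these, 11 had been above 2 or at 0.5 or less, and they turned to 0.933 for miR-10b, 0.938 for miR-127, 0.811 for miR-128, 0.551 for miR-133a, 0.850 for miR-133b, 0.916 for miR-206, 0.971 for miR-30d, 0.867 for miR-500, 1.36 for miR-15a, 1.06 for miR-20a and 4.52 for miR-451. Among the other 8, miR-145 turned to 1.32. The local background of miR-133b on the dystrophic array, 3087, exceeded its spot, 3049, and that of miR-451 on the normal array, 1768, exceeded its spot, 1345. Of 484 values of 38 other miRNAs, 390 lay inside their interval, without counting the 11 turned values listed. Among those 11, the values of miR-15a (interval from 0.102 to 2.12) and miR-500 (0.633 to 8.46) also lay inside theirs. With a single array for each pool, no replicate could be left out. No paired analysis was possible because the groups hold a single array each. In normal serum the spot of miR-22 was 35.9 units and that of miR-378 55.1 units above the blank mean.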
